A study of Arabidopsis thaliana with 18 samples.

Results

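PGD1 (AT1G64190, on chromosome 1) and PGD3 (AT5G41670, on chromosome 5) encode 6-phosphogluconate dehydrogenase of Arabidopsis thaliana. Each gene was followed through the 1 probe set annotated to it, so 2 of the 13286 genes with a probe set of their own are described here, in all 18 arrays (22746 probe sets were tested in all). The enzyme oxidises and decarboxylates 6-phosphogluconate to ribulose 5-phosphate and makes NADPH, as a step of the oxidative pentose phosphate pathway. In roots, which have no photosynthetic electron transport of their own, this NADPH reduces ferredoxin in plastids, and the ferredoxin feeds nitrite reductase and glutamate synthase. PGD1 and PGD3 are known as isoforms of plastids and cytosol, and the third isogene, PGD2 (AT3G02360), as an isoform of cytosol and peroxisomes. Transcripts of several genes of the pathway are known to be induced by nitrate.

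The arrays compare root RNA of 5 lines carrying changes in NRT1.1, a nitrate transporter and nitrate sensor, with the wild type, col (the Columbia accession), at 3 arrays per genotype. In chl1-5 the gene is known to be deleted, and chl1-9 is known to carry a point mutation. The other lines are chl1-12, for which the labels give no lesion, and T101A and T101D, named for replacement of the threonine T101 by alanine, which cannot be phosphorylated, or by aspartate, which mimics phosphorylation. All genotypes, col included, grew in vitro for 8 days on 10 mM NH4NO3, so nitrate and ammonium were supplied together to every group and no array tests a change of nitrogen supply. The labels state neither the background that carries the T101 forms, nor whether replicates came from separate cultures. All p-values are therefore relative to the scatter among these arrays, part of which may be technical.

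Every array had been scaled to a common trimmed mean of 500, and median intensities lay between 184.5 and 197. The 5' to 3' ratio of a GAPDH control was lowest in chl1-9 replicate 3, at 0.705, and at most 1.13 in the others. A gene is called measured here if the annotation gives it a probe set of 1 gene. Others may be on the array without such an annotation. Of 18 root markers 5 were measured. The most abundant, PYK10, a root beta-glucosidase gene, had mean intensities between 19320 and 21730 in the 6 genotypes. Of 13 markers of green shoot tissue 2 were measured, RCA and LHCB4.1, with mean intensities of 764.5 to 1660 and 238.4 to 421.8, so green markers were not absent from these root samples.

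PGD3 transcript rose in chl1-9. Its mean was above that of col in all 5 lines. The other 4 did not pass in the main fit, which takes no account of replicate numbers. Intensities of PGD3 were 4079, 4479 and 4199 in chl1-9, against 2634, 2717 and 2393 in col. These 3 chl1-9 arrays lay above all of the 15 other arrays, an order met by 0.791% of the tested probe sets. The mean was 4252 ± 205 in chl1-9 and 2581 ± 169 in col (SD, n = 3 each). The fitted difference was 0.72 ± 0.10 on the log2(intensity + 16) scale (SE, 95% interval 0.50 to 0.94), which is 64.4% higher on that scale, and percent differences from col below are fitted in the same way. The limma adjusted p was 0.00114, and 3.39% of all tested probe sets were called in this comparison (1.75% as higher), where a call means an adjusted p under 0.05. The difference stayed between 0.66 and 0.76 with any 1 array left out, and the call was kept in each of those 18 fits. In a bulk sample, more cells of a type and more RNA per cell cannot be told apart.

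**Figure D1:**
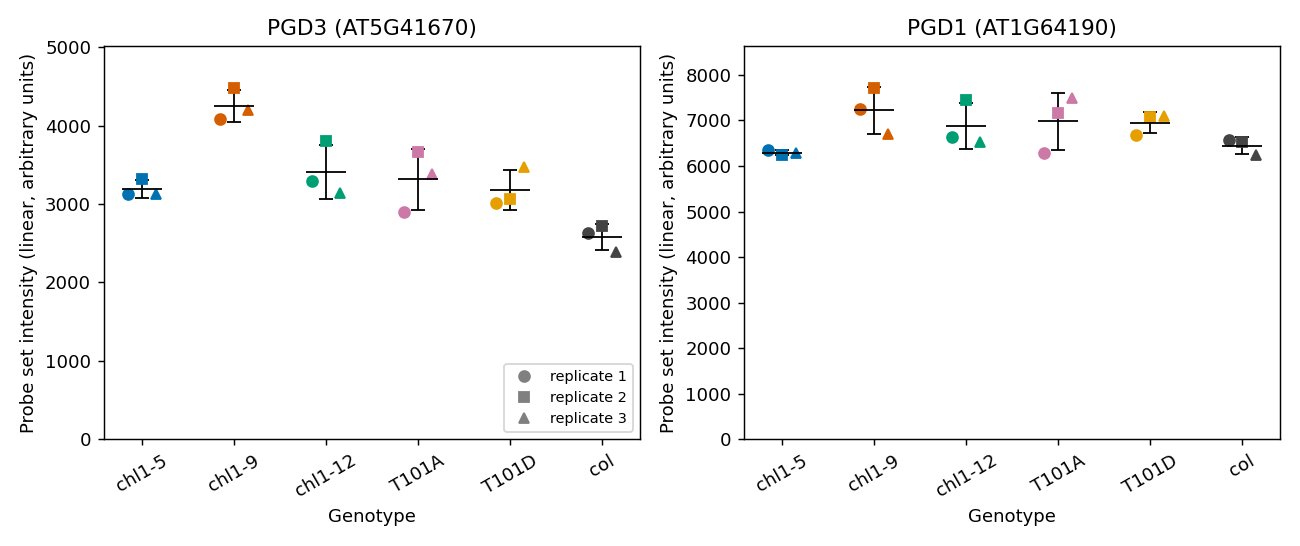
Probe set intensity (linear scale, arbitrary units, axis from 0) of PGD3 (left) and PGD1 (right) in the 5 lines and col; symbols are the 3 arrays of each genotype by replicate number, and bars are the mean ± SD. The 15 line arrays of PGD3, from 2895 to 4479, all lie above the 3 col arrays, from 2393 to 2717, while the PGD1 arrays of lines and col overlap.

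The 4 other lines lay between col and chl1-9 and close to each other. In the fit, chl1-9 minus chl1-12 was 0.32 log2 and chl1-12 minus col 0.40. T101A minus chl1-9 was -0.36 and T101A minus col 0.35. In chl1-12, PGD3 intensities were 3296, 3799 and 3138, a mean of 3411 ± 345, with a fitted difference of 31.7% from col (0.40 ± 0.10 log2, SE, limma adjusted p = 0.0812). In T101A they were 2895, 3664 and 3379, a mean of 3313 ± 389, with a fitted difference of 27.8% from col (0.35 ± 0.10, limma adjusted p = 0.0948). Neither line passed in this fit, though each passed in some of the alternative fits described below. T101A held the lowest single array of any line. In chl1-5 the intensities were 3124, 3318 and 3129, a mean of 3190 ± 110, with a fitted difference of 23.6% from col (0.31 ± 0.10, limma adjusted p = 0.177). In T101D they were 3012, 3063 and 3475, a mean of 3183 ± 254, with a fitted difference of 23.1% from col (0.30 ± 0.10, limma adjusted p = 0.297). The unadjusted limma p of these 4 comparisons lay between 0.00163 and 0.011, and their 95% intervals between 0.08 and 0.62, so none of the intervals included 0. The share of all tested probe sets called was 1.5% in chl1-12, 2.23% in T101A, 2.18% in chl1-5 and 0.255% in T101D.

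In each of the 5 comparisons the 3 line arrays of PGD3 lay above the 3 col arrays, which was also the case for 9.25% of the tested probe sets in chl1-9, 7.13% in chl1-12, 9.66% in T101A, 8.85% in chl1-5 and 6.81% in T101D. All 15 line arrays lay above all 3 col arrays, as they did for 335 probe sets, or 1.47%. These comparisons share the same 3 col arrays, so they are not independent of each other. The omnibus test over the 5 contrasts, which asks whether any line differs from col, gave a moderated F of 9.96 for PGD3 (limma adjusted p = 0.0176, with 2.63% of the probe sets called). A contrast of the mean of the 5 lines against col, chosen after the levels were seen, gave 0.41 ± 0.08 log2 (SE, limma adjusted p = 0.00923, with 3.28% of the probe sets called). Without col replicate 3, the lowest PGD3 array of all, that contrast was 0.36 with a limma adjusted p of 0.0864, and the omnibus adjusted p was 0.066. Without chl1-9 replicate 2, the highest, the omnibus adjusted p was 0.0641.

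The order of mean PGD3 levels was chl1-9, chl1-12, T101A, chl1-5, T101D and col, at 4252, 3411, 3313, 3190, 3183 and 2581. Of the 10 comparisons between lines, 0 passed for PGD3 with limma, with 4 at an unadjusted p under 0.05, all of them involving chl1-9. The share of all probe sets at that unadjusted threshold is not given here. T101D against chl1-9 was closest, at -0.42 ± 0.10 log2 (SE, limma adjusted p = 0.0557, 1.78% of the probe sets called), with no overlap of the arrays. That comparison passed in 7 of the alternative fits, at adjusted p between 0.0212 and 0.0496. The difference was 0.41 for chl1-9 against chl1-5 (limma adjusted p = 0.144), -0.36 for T101A against chl1-9 (0.128) and 0.32 for chl1-9 against chl1-12 (0.257). In these 3 comparisons 0.237%, 0.611% and 0.176% of the probe sets were called. The higher level of PGD3 in chl1-9 than in the other lines was therefore not called in the main fit. The 4 lower lines overlapped, with differences between them from -0.10 to 0.09. The share called was 0.0396% for chl1-12 and 0.0044% for T101A against chl1-5, 0.435% for T101D against chl1-5, and 0.044% for T101A and 0.185% for T101D against chl1-12. For T101A against T101D, the pair that differs in the residue replacing this threonine, PGD3 stood at 0.05 with a 95% interval from -0.17 to 0.27 (limma adjusted p = 0.983, with 0.0352% of the probe sets called).

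PGD1 transcript passed against col in 0 of 5 lines, with 0 at an unadjusted p under 0.05. Intensities of PGD1 were 7259, 7713 and 6696 in chl1-9, against 6576, 6520 and 6235 in col. The chl1-9 arrays were all higher than the col arrays, with a fitted difference of 11.9%, or 0.16 ± 0.09 log2 (SE, limma adjusted p = 0.393). In chl1-5 they were 6361, 6242 and 6278, within the col range, at -0.03 (95% interval -0.22 to 0.15). Of the others, chl1-12 had 6633, 7459 and 6534, T101A had 6286, 7166 and 7484, and T101D had 6683, 7079 and 7101. All T101D arrays lay above those of col, and the other 2 lines overlapped with it. Relative to col these 3 lines stood at 0.09, 0.11 and 0.11 (limma adjusted p = 0.784, 0.578 and 0.713). All 5 intervals lay between -0.22 and 0.35, so a change of PGD1 as large as that of PGD3 in chl1-9 falls outside them. The omnibus F for PGD1 was 1.52 (limma adjusted p = 0.577).

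Means of PGD1 were 7223 in chl1-9, 6979 in T101A, 6954 in T101D, 6876 in chl1-12 and 6294 in chl1-5, against 6444 in col, which places col between chl1-12 and chl1-5. Neighbours in the order of levels differed by at most 0.09 log2. The ends of the order, chl1-9 against chl1-5, differed by 0.20 ± 0.09 (SE, unadjusted p = 0.0376 and adjusted p = 0.399 with limma, 0.237% of the probe sets called), and 0 of the 10 comparisons between lines passed. T101A against T101D was at 0.00, with a 95% interval from -0.18 to 0.18 (limma adjusted p = 1).

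**Figure D2:**
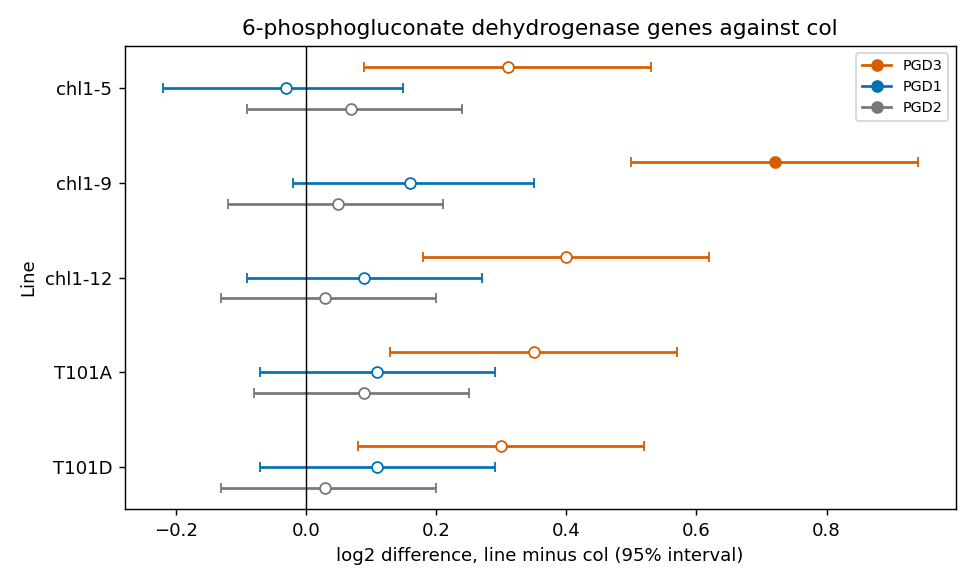
log2 difference of each line minus col (x axis) for the 3 isogenes PGD3, PGD1 and PGD2, with 95% intervals from the limma fit; filled circles have an adjusted p under 0.05 and open circles do not. PGD3 in chl1-9, at 0.72, is the filled point, and the intervals of PGD1 and PGD2 all include 0.

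Both probe sets varied less between replicates than the median probe set, but they were also brighter than 98.7% (PGD1) and 96% (PGD3) of the tested probe sets. Their spread was not compared with that of probe sets of like brightness. The SD within genotypes, pooled over the 6 genotypes, was 0.084 log2 for PGD1 and 0.115 for PGD3, against a median of 0.196 over all tested probe sets. From the lowest to the highest of the 18 arrays, PGD1 spanned 1.24-fold and PGD3 1.87-fold, against a median of 1.93-fold over all tested probe sets.

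Whether the isogenes differed in response was examined with the difference of log2 PGD3 and log2 PGD1 within each array, which measures a shift and not the level of one gene against the other. This shift, line minus col, was 0.19 in T101D, 0.24 in T101A, 0.31 in chl1-12, 0.34 in chl1-5 and 0.56 in chl1-9, with SDs between arrays of 0.04 to 0.10 in the lines and 0.06 in col (n = 3 each). The 3 arrays of each line all lay above the 3 of col, as they did for PGD3 by itself. These 5 comparisons share the same col arrays, and how often other pairs of probe sets separate in this way was not tested. Each exact two-sided permutation p was 0.1, the smallest that 3 against 3 arrays allow, and adjusted over the 5 comparisons it was also 0.1. This test could thus not pass the threshold of 0.05 in any single line, whatever the size of the shift.

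Between arrays the isogenes varied together. Over 18 arrays PGD1 and PGD3 had a Pearson's r of 0.69 and a Spearman's rho of 0.71 on the log2 scale (permutation p = 0.0019 and 0.0016, adjusted over 8 tests 0.0076 for both). Without chl1-9 replicate 2 and T101A replicate 3, the arrays farthest from the median of PGD1, r was 0.63 (permutation p = 0.0091, adjusted 0.013), and over the 15 line arrays it was 0.65. These permutations exchanged arrays freely across genotypes, although arrays of a genotype belong together. Their p-values therefore also take in differences between genotypes and can be too small. Deviations from the genotype means, which leave out every difference between genotypes, had r = 0.76 (exact permutation within genotypes, p = 0.013, adjusted 0.015). With ranks within genotypes in place of values, that correlation was 0.42 (exact permutation p = 0.2). Reordering within genotypes ignores variation shared by same-numbered arrays, so these p-values can be too small as well. Mean deviations in replicates 1, 2 and 3 were -0.033, 0.048 and -0.015 log2 for PGD1 and -0.061, 0.078 and -0.017 for PGD3. The values of the 2 genes share an array and its scaling. T101A replicate 1 was low for both genes while chl1-12 replicate 2 was high for both.

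**Figure D3:**
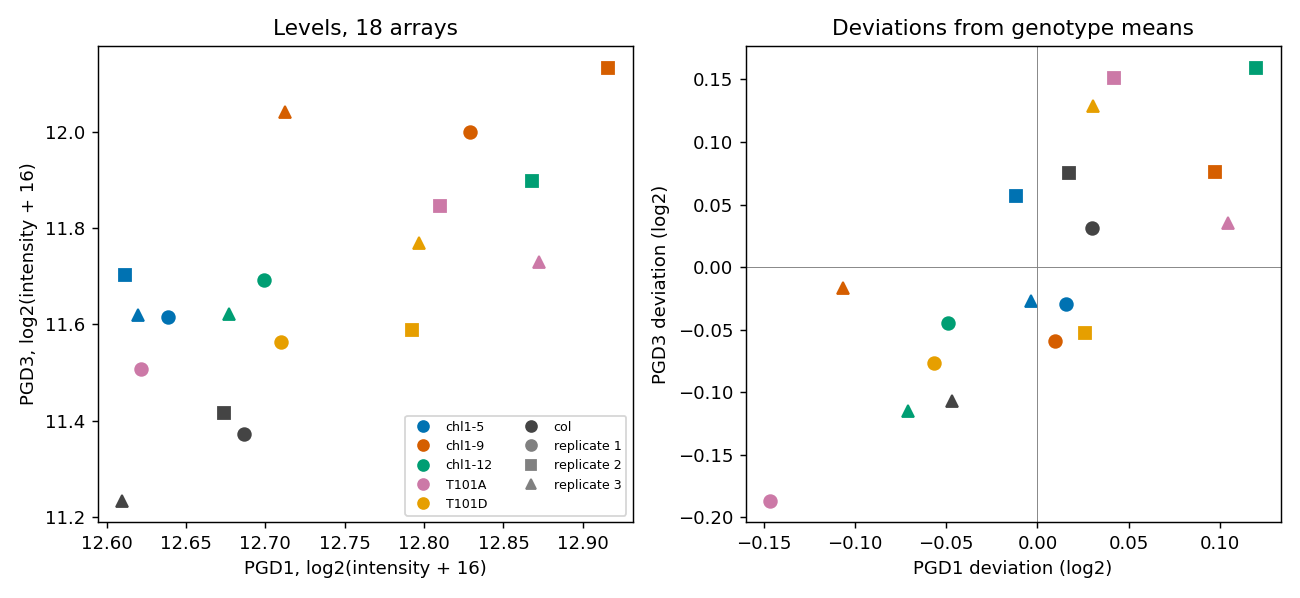
PGD3 against PGD1 on the log2(intensity + 16) scale (left) and as deviations from the mean of their genotype (right); each point is 1 of 18 arrays, with colours for genotypes and symbols for replicate numbers. Points rise together in both panels, with r = 0.69 and r = 0.76, and the 3 col arrays lie lowest for PGD3.

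Of 14 genes of the oxidative branch of the pentose phosphate pathway, 3 had a probe set of 1 gene, and these were the 3 PGD isogenes. The other members of the branch were not analysed here. PGD2 averaged 6771 in T101A, 6513 in T101D, 6582 in chl1-9, 6699 in chl1-5 and 6502 in chl1-12, against 6363 in col. Its differences ran from 0.03 to 0.09 log2, each with a 95% interval between -0.13 and 0.25 and a limma adjusted p of at least 0.635.

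The non-oxidative branch converts ribulose 5-phosphate back into sugar phosphates of glycolysis. Of its 11 genes 4 were measured and 0 passed in any line. In 10 of 20 tests against col the unadjusted limma p was under 0.05. These tests share the same col arrays, and the share of all probe sets at that unadjusted threshold is not given here. The transaldolase gene AT1G12230 averaged 1443 in chl1-5, 1476 in T101D, 1542 in T101A, 1557 in chl1-9 and 1606 in chl1-12, against 1798 in col. Its differences ran from -0.31 in chl1-5 (limma adjusted p = 0.0612) to -0.17 in chl1-12 (0.475), and were thus of the opposite sign to those of PGD3. The ribulose-phosphate epimerase genes of the cytosol, AT1G63290 and AT3G01850, ranged from -0.18 to 0.09 and from 0.01 to 0.33. AT5G44520, a ribose-5-phosphate isomerase family gene, was at -0.31 in chl1-9 (limma adjusted p = 0.108) and 0.12 in chl1-5. Medians of the branch ran from -0.20 to 0.05 over the 5 lines, beside medians of -0.03 to 0.00 over all probe sets.

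Among genes around the pathway, those of nitrate and ammonium assimilation (19 genes) and of ferredoxin reduction (8 genes) had 0 members with an annotated probe set of 1 gene. They are not analysed here, which does not mean that the array lacks them. The plastid xylulose-5-phosphate translocator gene AT5G17630, the 1 measured of 6 importers, was between -0.22 and 0.04. Of 4 measured genes for other NADP-linked dehydrogenases, ICDH (AT1G54340), the peroxisomal isocitrate dehydrogenase gene, was called in chl1-9, at 576.7 ± 30.2 against 463.4 ± 41.3 in col (SD, n = 3 each). The difference was 0.31 ± 0.08 log2 (SE, limma adjusted p = 0.0448, with 3.39% of all probe sets called). ICDH was also at 0.25 in T101A and 0.22 in T101D (limma adjusted p = 0.12 and 0.329), with all arrays above those of col, and at 0.09 in chl1-5 and in chl1-12. T101A and T101D minus chl1-9 were only -0.06 and -0.09 (limma adjusted p = 0.794 and 0.631). The cytosolic isocitrate dehydrogenase gene cICDH was between -0.08 and 0.03 in the 5 lines. The isocitrate dehydrogenase family gene AT5G14590 was between -0.19 and -0.11, and ALDH11A3, a gene for a non-phosphorylating glyceraldehyde-3-phosphate dehydrogenase, ran from -0.83 in T101D (unadjusted p = 0.00585, adjusted p = 0.234 with limma) to 0.25 in chl1-5. Neither passed in any line. Of 5 measured glycolysis genes, AT5G56350, a pyruvate kinase gene, rose in 4 lines by 0.36 to 0.38 log2 (limma adjusted p between 0.0113 and 0.025) and was at 0.31 in T101D, where it did not pass. The cytosolic glyceraldehyde-3-phosphate dehydrogenase gene GAPC2 ran from 0.09 in T101D to 0.27 in chl1-9 (limma adjusted p = 0.0775 in chl1-9). The cytosolic glucose-6-phosphate isomerase gene AT5G42740 ran from 0.11 in T101D to 0.24 in chl1-9 (0.216 in chl1-9). The remaining measured glycolysis genes, AT3G55440 and AT1G56190, ran from -0.05 in chl1-5 to 0.10 in chl1-9 and from -0.19 in T101A to 0.14 in chl1-9. Of these genes none passed in any line.

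**Figure D4:**
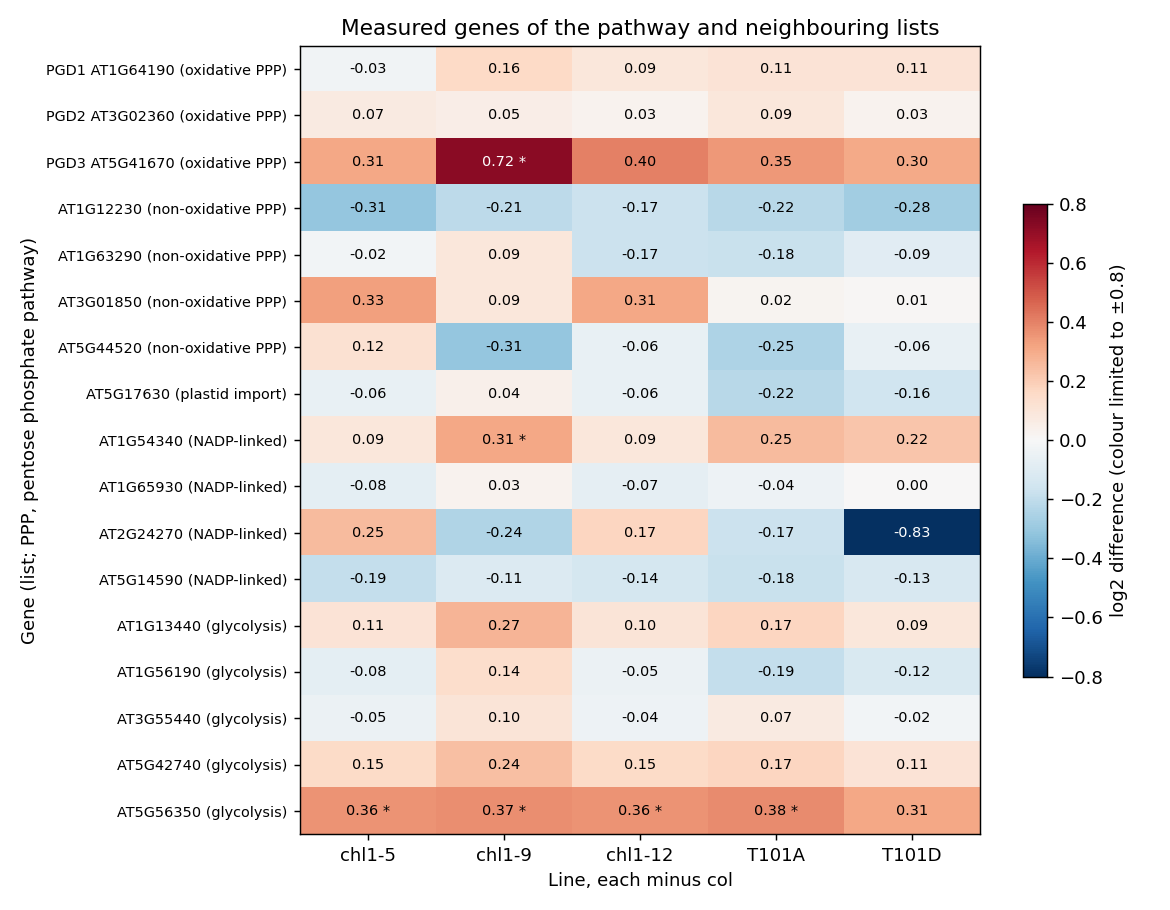
log2 difference of each line minus col (columns) for the 17 measured genes of 5 lists (rows); colour and printed number give the difference, and a star marks an adjusted p under 0.05. Stars stand at PGD3 and AT1G54340 in chl1-9 and at AT5G56350 in 4 lines.

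Root markers differed between the lines and col as well. The root hair peroxidase gene AT3G49960 rose in all 5, by 0.89 log2 in chl1-9 to 1.38 in T101A (limma adjusted p between 0.000157 and 0.0121). It had the largest difference of the measured root markers in every line. In chl1-9 the others were at -0.07 (EXPA7), 0.11 (EXPA18), 0.17 (PYK10) and 0.41 (PER44). None of those passed there (limma adjusted p = 0.842, 0.715, 0.437 and 0.164). In T101A 3 of 5 root markers passed, in chl1-5 2 and in each other line 1. Over all tested probe sets the share called was 2.23% in T101A, 2.18% in chl1-5, 3.39% in chl1-9, 1.5% in chl1-12 and 0.255% in T101D. Summed intensities of the 5 root markers were 25050 to 29240 in chl1-9, 26140 to 29530 in chl1-5, 26160 to 26790 in chl1-12, 25430 to 28760 in T101D and 28380 to 29660 in T101A, against 23030 to 24620 in col, with no overlap. Summed intensities of the 2 green markers were 779.5 to 1166 in T101D and 1254 to 1623 in T101A, against 1697 to 2485 in col, with no overlap. They were 1248 to 1913 in chl1-9, 1552 to 2127 in chl1-5 and 1369 to 2251 in chl1-12, which overlapped with col. Most of each root sum was PYK10, which by itself overlapped with col in every line but T101A and passed in none (lowest limma adjusted p 0.437). Among single probe sets, 6.81% to 9.66% had all 3 arrays of a line above those of col. The share lying below col in this way is not given here. Whether the sums reflect tissue shares, and the part of such shares in the PGD3 differences, was not tested.

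The genes whose pattern over the 18 arrays was most like that of PGD3, among 7468 other genes with a mean intensity of at least 100, were BAT1, AT4G39570, PMEAMT, BCAT4 and AT3G12620, with Pearson's r from 0.81 to 0.84. BAT1, which encodes an acyltransferase linked to brassinosteroids, had a mean of 2698 in chl1-9 against 1170 in col and was called in 5 of 5 lines. BCAT4, an aminotransferase gene of methionine-derived glucosinolate synthesis, had a mean of 6183 in chl1-9 against 2718 in col and was called in 3 lines. PMEAMT, which encodes a phosphoethanolamine methyltransferase, had a mean of 7473 against 5745 and was called in chl1-9, while AT4G39570 and AT3G12620 were called in 0 lines. Within genotypes these 5 correlations dropped to between 0.33 and 0.43. The genes were picked for likeness over the same arrays, so their high level in chl1-9 and their calls are not separate evidence. PGD1 ranked 71 among the same genes.

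PGD1 was most like AT3G12050, AT1G50575, AT5G26710, MPPBETA and AT4G01395, with r from 0.76 to 0.83. AT5G26710 encodes a glutamyl-tRNA synthetase and MPPBETA a subunit of the mitochondrial processing peptidase. None of the 5 was called against col in any line, and their correlations within genotypes, from 0.68 to 0.78, were close to those over all arrays. These values describe shared variation over arrays that were scaled alike, and they were the highest of 7468 in each case.

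**Figure D5:**
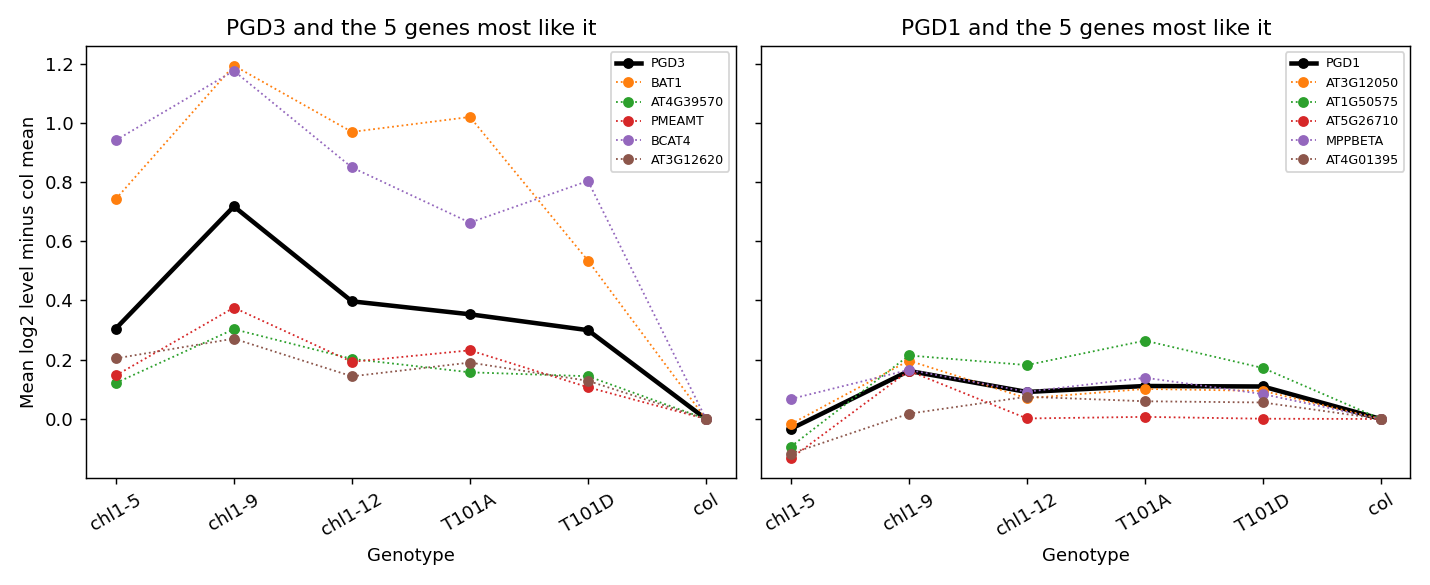
Mean log2 level of each genotype minus that of col for PGD3 (left, heavy line) and PGD1 (right, heavy line), each with the 5 genes most like it over the 18 arrays; lines only guide the eye. PGD3 and its 5 neighbours, which were picked for that likeness, are highest in chl1-9 and above col in every line, whereas PGD1 lies between -0.03 and 0.16.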

How the data were processed

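The authors deposited 1 table of intensity values per probe set for the 18 arrays, on a linear scale. Per the labels' protocols, root RNA was extracted with TRIzol and labelled with an Affymetrix 3' IVT Express kit. Which software summarised the probes is not given in the sources used here. From the values, the mean of each array is 500 once 2% of the probe sets are trimmed at each end, and such scaling hides a change in total messenger RNA. No depth applies, and the number of arrays limits the precision.

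Here 64 control probe sets were left out and log2(intensity + 16) was fitted with limma 3.58.1 in R 4.3.3, with 1 coefficient per genotype over all arrays, and p-values of each contrast were adjusted by Benjamini-Hochberg over 22746 probe sets. The fit was also tested on simulated data with independent noise in each array and probe set. That test does not cover variation shared between arrays. Correlations used 100000 permutations, or every reordering within genotypes, in Python 3.11.15 with numpy 2.4.6. The pseudocount makes folds of dim probe sets too small.

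Genes were named from the platform annotation, which listed 1 gene for 13513 tested probe sets, 13436 of them matched to RefSeq TAIR10.1 loci. It listed several genes for 503 and no gene for 8730, and genes on those probe sets count as not measured. Whether a probe set also binds a related isogene was not tested. Named genes were the members, all measured pentose phosphate genes, called genes of the other lists, and the 5 genes most like each member. Some uncalled genes of the other lists (AT5G17630, cICDH, AT5G14590, ALDH11A3, GAPC2, AT5G42740, AT3G55440, AT1G56190) and marker genes were named after their values were seen. Members and lists were chosen with earlier results of these data known. Groups and replicate numbers came from sample titles. Alternatives covered pseudocount, filters, normalization, the arrays fitted, the replicate number as a block, variance trend, array weights and each array left out.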

Additional observations from a re-analysis of the deposited data

How the results depend on the processing

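PGD3 in chl1-9 minus col kept its direction and call in all 28 alternatives, at 0.664 to 0.755 (limma adjusted p 0.000171 to 0.0499, the highest in a fit of the 6 arrays compared). PGD3 in chl1-12 passed with a pseudocount of 64 (0.391), above the median of mean level, with an intensity trend and with the replicate number as a block (0.397 each), and PGD3 in T101A above the median and with a trend (0.353 each). PGD3 in chl1-5 and T101D, and PGD1 in every line, passed in 0 of 28 alternatives each. The 1 call between lines, PGD3 in T101D minus chl1-9, appeared with a pseudocount of 64, above the lowest quartile, above the median, with the replicate block and with a trend, and leaving out 1 array gave 0 to 1 calls. T101A minus T101D for PGD1 was -0.012 with arrays centred on their medians and -0.005 with array weights. Leaving out 1 array gave -0.051 to 0.075 for PGD1 and -0.022 to 0.147 for PGD3 in that comparison, 7.21 to 12.3 for the omnibus F of PGD3 and 0.361 to 0.452 for PGD3 in the mean of the 5 lines minus col. The correlation of PGD1 with PGD3 was 0.600 to 0.764 over its 22 alternatives. Calls of genes other than PGD1 and PGD3 were not run under the alternatives.

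Counts of called probe sets moved more. Against 58 in T101D minus col, they were 37 and 99 with pseudocounts of 1 and 64, 115 above the lowest quartile, 154 above the median, 105 with centred arrays, 91 with the replicate block, 117 with a trend and 111 with array weights. In T101A (508) they were 789 above the median, 879 with the replicate block and 819 with array weights, and array weights gave 867 in chl1-5 (495) and 536 in chl1-12 (341). Fits of the 6 arrays compared gave 4 in T101D, 45 in T101A, 95 in chl1-12, 135 in chl1-5 and 160 in chl1-9 (772). With 1 array left out the counts were 12 to 81 in T101D, 226 to 567 in T101A, 181 to 382 in chl1-12, 216 to 522 in chl1-5 and 453 to 744 in chl1-9. Fewer arrays enter the last 2 settings, and the cause of the other moves was not tested.

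Replicate numbers are given by the labels without a stated meaning. Deviations of same-numbered arrays of a line and of col correlated across probe sets at 0.01 to 0.137, above 0.1 in 3 of 15 pairs. For these low values, which cover only pairs with col, the numbers were not taken as pairs in the main fit. All 18 arrays nevertheless correlated best, on average, with arrays of other genotypes that carried their own number. Same-numbered arrays thus shared some variation, which the main fit left in the scatter. With the number as a block, some PGD3 comparisons passed that did not pass in the main fit. More probe sets were then called in each line against col. Whether the number marks a batch was not tested. Replicate 2 held the highest PGD3 value in 5 of 6 genotypes. With 3 arrays a group, exact tests of a single line cannot go under 0.1.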
